A study of Drosophila melanogaster with 6 samples.

Results

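The genes examined here encode the voltage-gated sodium and calcium channels, the potassium channels and the sodium leak channel of Drosophila melanogaster, with their auxiliary subunits and binding partners. A list of 37 such genes was matched by symbol to the array's annotation, and the probe set with the highest mean signal stood for each gene. Of these, 36 genes had a named probe set, out of 11982 genes so named on the array; KCNQ was not analysed here. All 36 lay above background on all 6 arrays, where background is the 95th percentile of the 50 control probe sets that carry protein accessions from other species. No filter on low values therefore removed a member.

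The arrays were hybridised with RNA from whole heads of mated w1118 females, a white-eyed laboratory strain. On the high fat diet (3 arrays) the flies fed for 7 days on yeast, sucrose and cornmeal medium with 20% (w/v) coconut oil. On the normal diet (3 arrays) they fed for the same 7 days on that medium without the oil. All females had mated for 48 hours with isogenic males before the diets began, and each RNA sample pooled 25 to 50 heads. The stated diet temperature, 23°C, held in most cases, and which samples differed is not stated in the labels. The design text calls the 3 samples of a diet biological replicates. The question was how a week on the fatty medium changes gene expression in the head.

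Action potentials are carried by sodium channels, which open on depolarisation, and are ended by potassium channels. Calcium channels couple the depolarisation to transmitter release and to contraction, while leak channels set the resting potential from which a spike starts. In the fly, mutants of these genes are known from shaking legs under ether (Shaker, Hyperkinetic, ether a go-go), from paralysis at raised temperature (paralytic, seizure, temperature-induced paralytic E) and from disturbed sleep or daily rhythms (quiver, sandman, narrow abdomen). Whole heads hold brain, eye, muscle, fat body and other tissues, so fewer cells of a type and less RNA per cell cannot be told apart in these values.

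Signal is given as log2 intensity. Values with ± are means and SD over 3 arrays. Changes are differences in mean log2 signal, positive where the high fat diet was higher, each with its standard error (SE) or unadjusted 95% interval from the limma fit. Levels of different probe sets are not comparable. A summed signal of a list adds linear intensities, so its brightest probe sets weigh most in it. The arrays had 65.3% to 70.0% of probe sets above background. Control probes at both ends of the Act5C transcript gauge RNA integrity by their 3'/5' signal ratio, which was 20.4 on high fat array 2 and 10.5 to 13.2 on the other 5 arrays. Of the ovary and germ line markers, all 9 measured had the lower mean with the high fat diet, 8 of them without overlap of the diets. Their summed signal was 198 to 246 on the high fat arrays, with 3 to 5 of the 9 above background, against 10876, 1383 and 13869 on normal diet arrays 1, 2 and 3, with 8 above background on each. The exception was the germ line gene vas, which was below background on every array. The neuronal markers elav and nSyb, the photoreceptor markers trp and chp and the glial marker repo were above background on all 6 arrays.

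No channel gene passed the threshold. By limma with Benjamini-Hochberg adjustment over all 18769 probe sets, 0 of 36 had an adjusted p under 0.05, where the share of all probe sets called was also 0%. The smallest adjusted p of a channel gene was 0.610, which the adjustment gave to 7 of them alike. At an unadjusted p under 0.05 there were 2 channel genes higher on the high fat diet and 0 lower, where 2.95% of all probe sets were higher and 4.91% lower. In 31 of the 36 genes the high fat mean was nevertheless the higher one (86.1%, against 45.7% of all probe sets), with a median change of 0.19, against -0.03 over all probe sets. In 10 genes all 3 high fat values exceeded all 3 normal diet values, a share of 27.8% where 8.46% of all probe sets did so. None showed the opposite order, which 9.23% of all probe sets showed. Among the 8326 genes that lay above background on all 6 arrays, 44.6% had the higher mean with the high fat diet and 2.71% were higher and 4.79% lower at an unadjusted p under 0.05. In 11.9% of those genes all high fat values exceeded all normal diet values, and in 12.1% the order was the opposite. The 10 genes were tipE, cac, stj, Sh, Shal, SK, Hk, qvr, Slob and unc79.

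**Figure D1:**
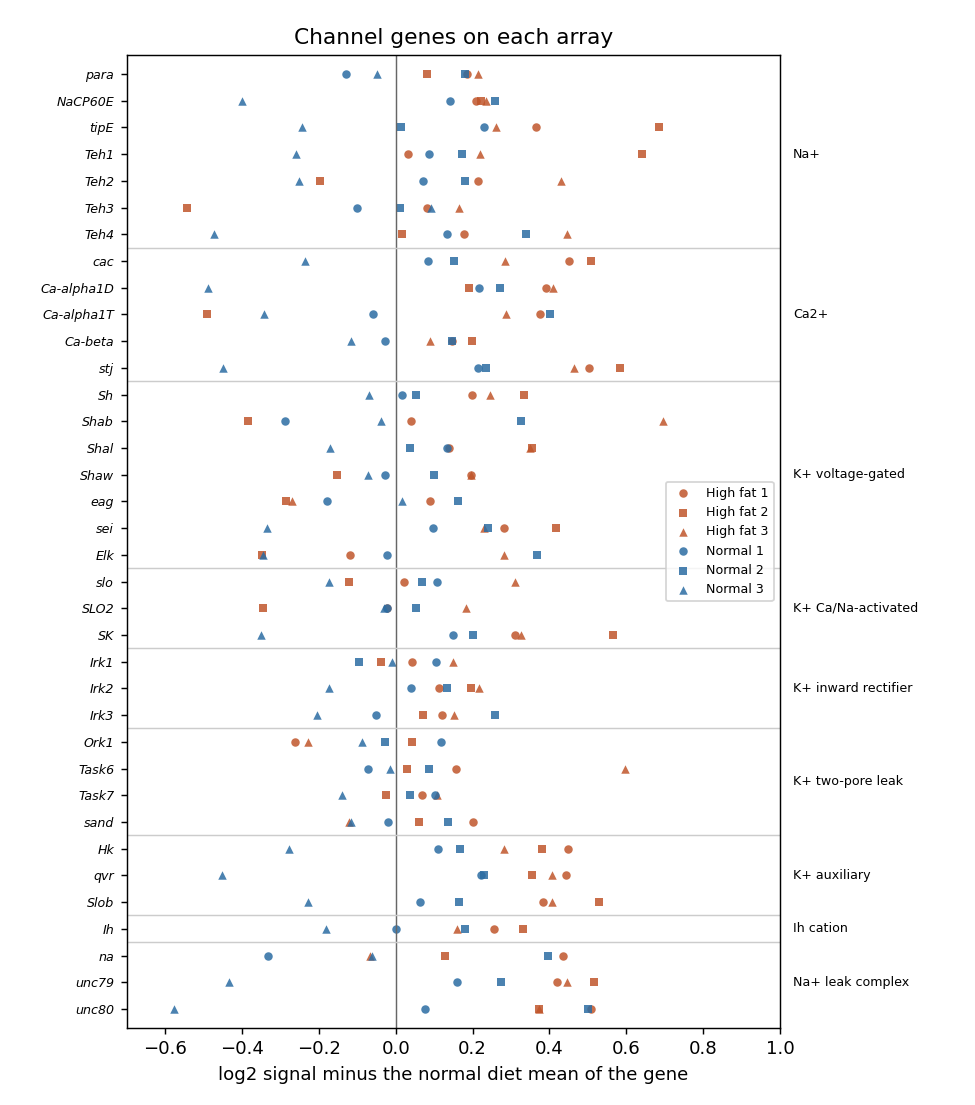
Log2 signal of each of the 36 channel genes on each array, relative to the normal diet mean of that gene; orange symbols are the 3 high fat arrays, blue symbols the 3 normal diet arrays, and rows are grouped by ion. Blue triangles, normal diet array 3, lie farthest to the left in 23 of the 36 rows, and orange squares, high fat array 2, in 7.

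Of the 7 sodium channel genes, 6 had the higher mean with the high fat diet, and the class median change was 0.21. para, the gene of the pore that carries the action potential in fly neurons, measured 8.86, 8.75 and 8.89 on the high fat arrays, against 8.54, 8.85 and 8.62 on the normal diet arrays. Normal diet array 2 lay inside the high fat range, so the diets overlapped, and the change was 0.16 (SE 0.13, interval -0.18 to 0.50). NaCP60E, a second gene of the sodium channel family, stood at 10.12 ± 0.01 on the high fat diet and 9.89 ± 0.35 on the normal diet, where array 3 alone was low at 9.50.

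tipE encodes an auxiliary subunit that raises para current, and Teh1 to Teh4 are its relatives. In the RefSeq gene table, Teh3, Teh2 and Teh4 follow each other with 0 protein-coding genes between them, and 1 gene separates tipE from Teh3. tipE measured 9.15, 9.47 and 9.04 on the high fat arrays, against 9.01, 8.80 and 8.54 on the normal diet arrays. The diets did not overlap, though the gap between the nearest values was narrow, and the change was 0.44 (SE 0.19, 1.35-fold, interval -0.05 to 0.92, limma adjusted p = 0.610). The change was smaller in its neighbours: Teh2 was at 0.15 (SE 0.22), Teh4 at 0.21 (SE 0.26) and Teh3 at -0.10 (SE 0.22), and in all of these the diets overlapped. Teh1, which lies elsewhere, was at 8.28 ± 0.31 on the high fat diet and 7.98 ± 0.23 on the normal diet. A difference between tipE and its relatives was not tested. The spread within the high fat diet was wide in several of these genes: Teh3 measured 8.54, 7.91 and 8.62 there, and Teh1 8.02, 8.63 and 8.20, with array 2 the low one in Teh3 and the high one in Teh1.

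All 5 calcium channel genes averaged higher on the high fat diet, with a class median of 0.33. The difference was widest in the presynaptic pair: cac, the pore-forming subunit of the channel that triggers transmitter release, and stj, the alpha2-delta subunit that brings it to the terminal. cac measured 11.36, 11.42 and 11.20 on the high fat arrays, against 11.00, 11.07 and 10.68 on the normal diet arrays. Every high fat value lay above every normal diet value (change 0.41, SE 0.16, 1.33-fold, interval 0.02 to 0.81, unadjusted p = 0.0430, limma adjusted p = 0.610). stj measured 11.38, 11.46 and 11.34 on the high fat arrays, against 11.09, 11.12 and 10.43 on the normal diet arrays. It had the widest change of the 36 genes, 0.52 (SE 0.22, 1.43-fold, interval -0.05 to 1.08), and much of it came from array 3 of the normal diet: without that array the change was 0.29. For cac the change without that array was 0.30.

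The other calcium channel genes overlapped between diets. Ca-alpha1D, the L-type channel of muscle and neuron cell bodies, was at 10.62 ± 0.12 on the high fat diet and 10.29 ± 0.42 on the normal diet. Ca-beta, the cytoplasmic beta subunit, was at 9.60 ± 0.05 on the high fat diet and 9.46 ± 0.13 on the normal diet. Its next brightest probe set, also above background on all 6 arrays, went the other way (change -0.44, SE 0.26), again with overlap. Ca-alpha1T, the T-type channel that opens at low voltage, had 8.28, 7.42 and 8.20 on the high fat arrays and 7.85, 8.31 and 7.56 on the normal diet arrays, a change of 0.06 whose interval ran from -0.76 to 0.87. Its values covered almost the same range on both diets.

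Potassium channel genes were the largest class, with 20 measured, of which 16 had the higher mean with the high fat diet (median 0.12). Among the pores gated by voltage, Sh, which gives the fast transient A-type current, measured 10.71, 10.85 and 10.76 on the high fat arrays, against 10.53, 10.56 and 10.44 on the normal diet arrays. It combined a small change with a small spread (0.26, SE 0.11, 1.20-fold, interval -0.02 to 0.54). Shal, the A-type channel of neuron cell bodies and dendrites, measured 7.37, 7.59 and 7.58 on the high fat arrays, against 7.37, 7.27 and 7.06 on the normal diet arrays. The lowest high fat value barely cleared the highest normal diet one, and the change was 0.28 (SE 0.14).

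Shab and Shaw, which give delayed rectifier currents, had changes of 0.12 (SE 0.33) and 0.08 (SE 0.15), and their diets overlapped. Shab was the least precise of the 36 genes, at 6.44, 6.01 and 7.09 on the high fat arrays alone. In the ether a go-go family, sei, the ERG-type member, was higher by 0.31 (SE 0.19), while eag was at -0.16 (SE 0.17) and Elk at -0.06 (SE 0.26). After quantile normalization eag was at 0.11 and Elk at 0.13, and after median centring they were at 0.11 and 0.21.

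The proteins that attach to potassium channels had the highest median of the potassium classes (0.40), and the diets did not overlap in any of the 3. Slob, which binds the Slowpoke channel and alters its gating, measured 11.60, 11.74 and 11.62 on the high fat arrays, against 11.28, 11.38 and 10.99 on the normal diet arrays. It had the smallest unadjusted p of the 36 genes (0.0296, limma adjusted p = 0.610) at a change of 0.44 (SE 0.15, 1.36-fold, interval 0.06 to 0.82). Hk, the beta subunit of the Shaker channel, measured 11.06, 10.99 and 10.89 on the high fat arrays, against 10.72, 10.78 and 10.33 on the normal diet arrays. Its change was 0.37 (SE 0.16, interval -0.04 to 0.78). qvr, a small membrane-anchored protein also called sleepless that raises Shaker levels and promotes sleep, measured 11.68, 11.59 and 11.64 on the high fat arrays, against 11.45, 11.46 and 10.78 on the normal diet arrays. The change of 0.40 (SE 0.22) shrank to 0.18 without normal diet array 3.

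Among the channels that respond to calcium or sodium inside the cell, SK, the small-conductance calcium-activated channel, measured 11.14, 11.39 and 11.15 on the high fat arrays, against 10.98, 11.03 and 10.48 on the normal diet arrays. Its diets did not overlap (change 0.40, SE 0.20, interval -0.10 to 0.90). slo, the large-conductance channel to which Slob binds, was at 10.12 ± 0.22 on the high fat diet and 10.05 ± 0.15 on the normal diet. The change of 0.07 (SE 0.17, interval -0.36 to 0.50) lay inside the spread of either diet. Its relative SLO2 was at -0.06 (SE 0.17).

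Inward rectifiers and tandem-pore leak channels, which act near the resting potential, had no gene in which the diets separated. Irk2 measured 10.40, 10.48 and 10.50 on the high fat arrays, against 10.32, 10.42 and 10.11 on the normal diet arrays (change 0.17, SE 0.13), and Irk1 and Irk3 were at 0.05 and 0.11. Task6 measured 6.52, 6.40 and 6.96 on the high fat arrays, against 6.29, 6.45 and 6.35 on the normal diet arrays (change 0.26, SE 0.18), where high fat array 3 was the high one. The changes of Task7 and of sand, a channel known from sleep-promoting neurons, were 0.05 each. Ork1, an open rectifier that is active at all voltages, was lower at 9.84 ± 0.17 on the high fat diet, against 9.99 ± 0.11 on the normal diet, and its change of -0.15 (SE 0.14) had an interval from -0.51 to 0.21.

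Ih, the cation channel that opens on hyperpolarisation, measured 11.69, 11.76 and 11.59 on the high fat arrays, against 11.43, 11.61 and 11.25 on the normal diet arrays. High fat array 3 lay just below normal diet array 2, so the diets overlapped, and the change was 0.25 (SE 0.14, interval -0.11 to 0.61). The sodium leak complex consists of the pore na, the fly NALCN, and the large proteins unc79 and unc80 that it needs for its level and activity; in flies it drives the daily cycle of clock neuron excitability. unc79 measured 10.76, 10.86 and 10.79 on the high fat arrays, against 10.50, 10.62 and 9.91 on the normal diet arrays, without overlap (change 0.46, SE 0.22, 1.38-fold, interval -0.09 to 1.01). unc80 was at 8.80 ± 0.08 on the high fat diet and 8.38 ± 0.54 on the normal diet, with normal diet array 3 at 7.81 and array 2 at 8.88, inside the high fat values. The change of na was 0.17 (SE 0.25). For the complex the median change was 0.42, and 0.13 without normal diet array 3.

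**Figure D2:**
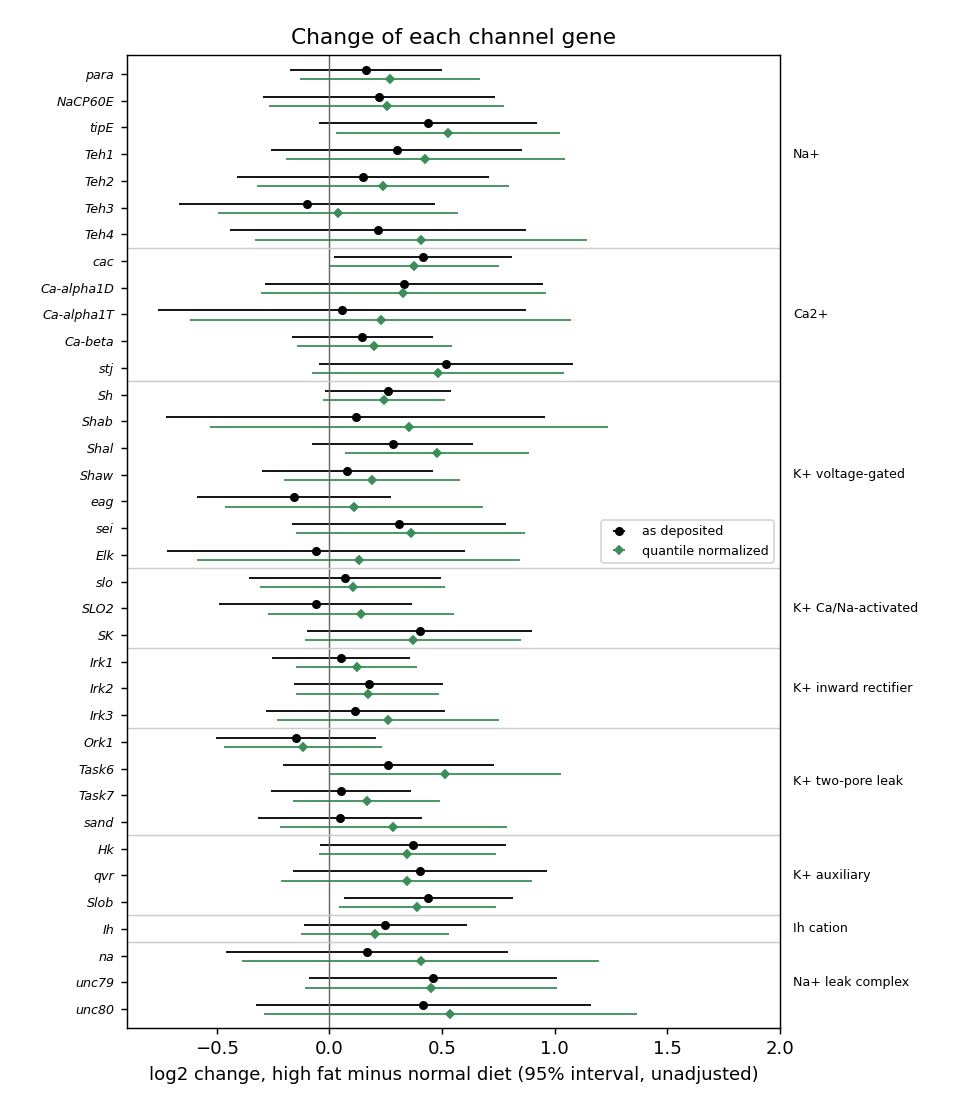
Change of each of the 36 channel genes, high fat minus normal diet, in log2 units with the 95% interval of the limma fit; black circles are values as deposited and green diamonds are after quantile normalization. Of the black intervals, 34 contain 0 and 33 stay within 1 log2 unit of it.

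The intervals bound what 3 arrays per diet can show. They contained 0 in 34 of the 36 genes; those of cac and Slob lay above it. In 33 genes they excluded a change beyond 1 log2 unit in either direction; the exceptions were stj, unc79 and unc80, whose upper bounds were 1.08, 1.01 and 1.16. These intervals are not adjusted for the number of genes.

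The difference between diets rested unevenly on the normal diet arrays. The mean over the high fat arrays exceeded normal diet array 3 in 32 of the 36 genes (median difference 0.37) and array 1 in 30 genes (0.17), but array 2 in only 19 (0.0076). Among the 8326 genes above background on all arrays the corresponding median differences were -0.04, -0.04 and -0.0078. Array 3 was the lowest of the 6 arrays in 23 channel genes, 63.9%, against 24.6% of those 8326 genes. Without it 26 of the 36 genes averaged higher on the high fat diet and the median change was 0.09; without array 2 of the normal diet the figures were 32 genes and 0.29. Normal diet arrays 1 and 3 are the pair with the highest germ line signal, at 10876 and 13869, and array 2, at 1383, is the normal diet array nearest to the high fat arrays in both the germ line list and the channel genes. The part of the germ line signal in these differences was not tested.

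Other markers of head tissue shared some of this profile. Of the neuron markers 9 of 10 had the higher mean with the high fat diet (median change 0.26), with a summed signal of 41044 to 47782 on the high fat arrays and 33408 to 40022 on the normal diet arrays. The channel genes summed to 36328 to 37157 on the high fat arrays and 24868 to 33543 on the normal diet arrays. Photoreceptor markers were higher in 7 of 7 (median 0.30), muscle markers in 5 of 6 (0.29), glial markers in 6 of 7 (0.16) and hemocyte markers in 4 of 4 (0.26). In the neuron list the high fat mean exceeded normal diet arrays 1, 2 and 3 by medians of 0.14, 0.16 and 0.46, so that array 2 was not the closest there. Fat body markers were split, with 4 of 7 higher, and normal diet array 1 was their low one. Normal diet array 3 was the lowest array in 90% of neuron, 83.3% of muscle, 75% of hemocyte and 71.4% of photoreceptor and of glial markers. In fat body markers it was so in 0%. All high fat values exceeded all normal diet values in 40% of neuron, 66.7% of muscle, 71.4% of photoreceptor and 75% of hemocyte markers. That share was 14.3% in glial and 0% in fat body markers. For the channel genes these shares were 63.9% and 27.8%. A difference between the channel genes and the neuron markers was not tested.

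**Figure D3:**
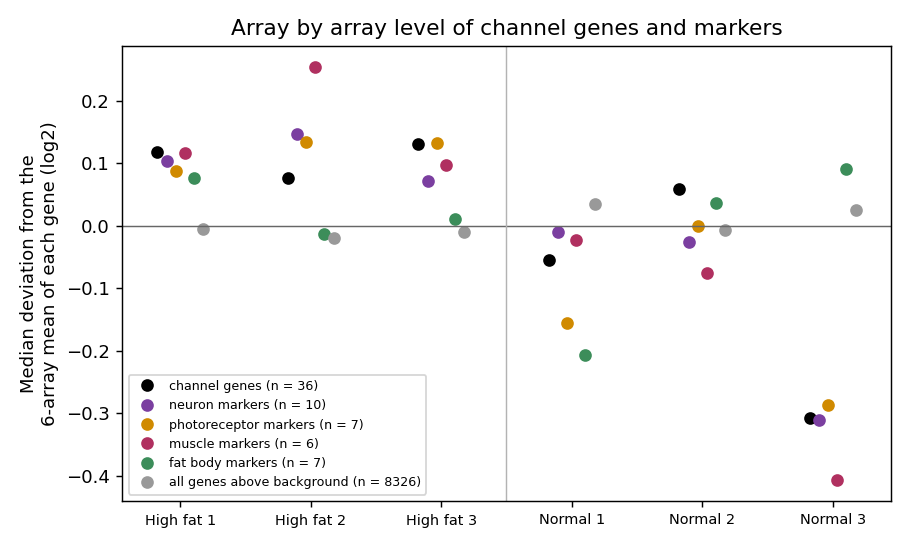
Median over each gene list of the log2 deviation of an array from the gene's mean over the 6 arrays, for the channel genes, 4 marker lists and all genes above background; n is the number of genes. The channel genes stand at 0.12, 0.08 and 0.13 on the high fat arrays and at -0.06, 0.06 and -0.31 on normal diet arrays 1, 2 and 3.

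Several channel genes were measured by more than 1 probe set, which gives a further view of the same RNA samples. In all there were 60 probe sets for the 36 genes, and 12 genes had more than 1. The brightest probe set of a gene and its dimmer ones often differed in sign. Of the 20 other probe sets above background on all arrays, 6 averaged higher on the high fat diet (30.0%, median change -0.08), where 31 of the 36 brightest did. Over all 962 probe sets of this kind on the array, 446 did (46.4%, median -0.021).

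Sh, with 7 probe sets, is an example. Its 4 brightest probe sets had changes of 0.26, 0.40, 0.16 and 0.35, each without overlap of the diets. The 3 dimmer ones had changes of -0.23, -0.09 and -0.40 with overlap. The dimmest measured 5.31, 4.05 and 5.08 on the high fat arrays, against 5.33, 5.38 and 4.94 on the normal diet arrays, so that high fat array 2 alone set it apart. In qvr the brightest probe set had a change of 0.40 and the others -0.49 and -0.17, and in Hk the changes were 0.37, -0.08 and -0.16 from brightest to dimmest. SK kept its direction in the next brightest probe set (0.32, SE 0.15, no overlap) but not in the third (-0.08, SE 0.22). Its dimmest one was below background on every array. Slob was higher in both of its probe sets (0.44 and 0.11).

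**Figure D4:**
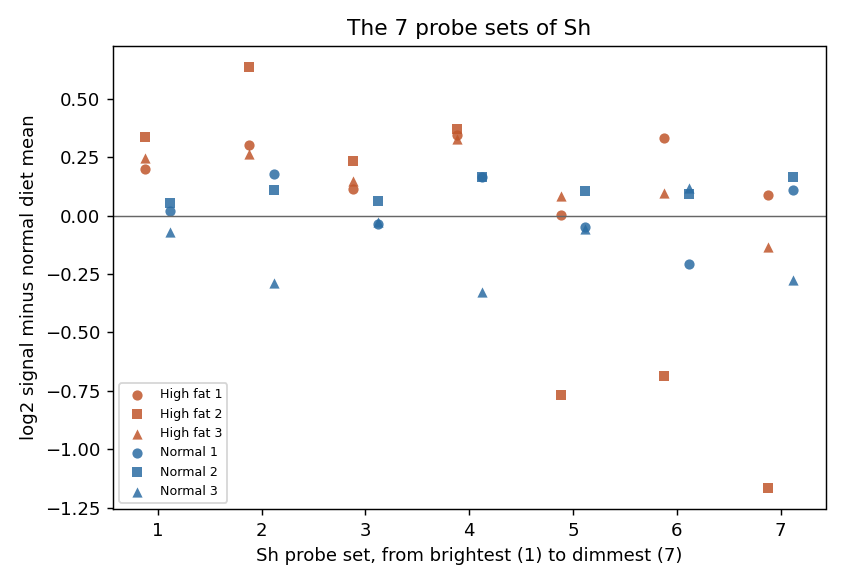
Log2 signal of the 7 probe sets of Sh on each array, relative to the normal diet mean of that probe set, ordered from the brightest to the dimmest; orange symbols are high fat arrays and blue symbols normal diet arrays. In probe sets 1 to 4 every orange symbol lies above every blue one, and in 5 to 7 the orange square, high fat array 2, is the lowest point.

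Many of the dimmer probe sets were low on high fat array 2, the array with the actin 3'/5' ratio of 20.4. Over the 20 other probe sets this array lay below the mean of high fat arrays 1 and 3 in 14 (median difference -0.62). Over the 962 such probe sets of all genes, 74.3% did so, with a median difference of -0.22. Over the brightest probe sets of the 36 genes the median difference was -0.06. Without this array 14 of the 20 had the higher mean with the high fat diet (median 0.10), and after quantile normalization 15 did (median 0.14). Of the 962, 586 did so without the array (median 0.069) and 647 after quantile normalization (median 0.13). Among the 36 brightest probe sets the counts were 34 without the array and 35 after quantile normalization. Within the 36 genes, those with a mean log2 signal of at least 9, a split chosen after the values were seen, were higher on the high fat diet in 17 of 18 (median 0.28, 8 without overlap). Those below 9 were higher in 14 of 18 (median 0.12, 2 without overlap). The same split of the 8326 genes above background gave 52.2% higher and 17.1% higher without overlap at or above 9, and 37.6% and 7.16% below it, so these shares also differed with brightness among genes at large. In the brighter genes high fat array 2 was the highest of the 6 arrays in 9 and the lowest in 0, and in the dimmer ones it was the lowest in 7. The part of RNA integrity in this was not tested.

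**Figure D5:**
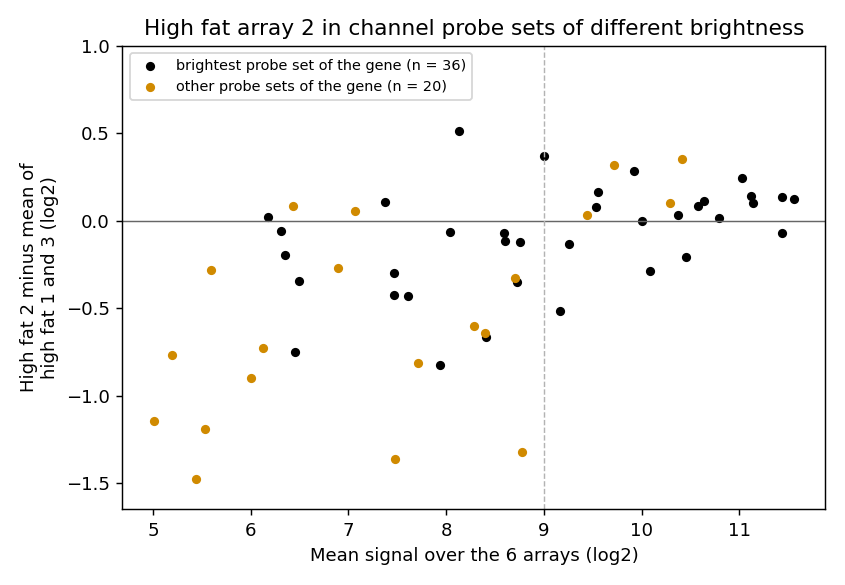
Difference of high fat array 2 from the mean of high fat arrays 1 and 3 against mean signal, both in log2 units, for the 36 brightest probe sets of the channel genes (black) and their 20 other probe sets above background on all arrays (yellow); the dashed line marks a signal of 9. Points below 0 gather at low signal, with a lowest value of -1.48 among the yellow ones.

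Genes related to these channels by function also held none past the threshold. Of 28 measured genes of other ion channels (calcium release, chloride, cyclic nucleotide, TRP and further potassium channels), 0 passed the threshold by limma, 2 had an unadjusted p under 0.05, both higher (2.95% of all probe sets), and 19 averaged higher on the high fat diet (67.9%, against 45.7% of all probe sets, median 0.06). In 4 of the 28 all high fat values exceeded all normal diet values (14.3%). That share was 8.46% of all probe sets and 11.9% of the genes above background on all 6 arrays. In 1 of the 28 the order was the opposite, as in 9.23% of all probe sets. RyR, the calcium release channel of the sarcoplasmic and endoplasmic reticulum, measured 9.36, 9.58 and 9.42 on the high fat arrays, against 8.93, 9.20 and 8.46 on the normal diet arrays (change 0.59, SE 0.22, limma adjusted p = 0.610). CG1688, listed here among the potassium channels of the tandem-pore family, was at 8.48 ± 0.08 on the high fat diet and 8.14 ± 0.08 on the normal diet, without overlap (change 0.34, SE 0.12). The widest difference of the list was in the other direction: nompC, a mechanosensory TRP channel picked out after its values were seen, measured 4.25, 1.51 and 4.57 on the high fat arrays, against 4.62, 4.73 and 5.36 on the normal diet arrays. It was above background on only 4 of the 6 arrays, and its change of -1.46 (SE 0.88) had an interval from -3.69 to 0.77.

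Of 13 measured regulators of channels and ion pumps, 12 had the higher mean with the high fat diet (92.3%, against 45.7% of all probe sets, median 0.16). By limma 0 passed the threshold (0% of all probe sets) and 2 were higher at an unadjusted p under 0.05 (2.95% of all probe sets). In 4 all high fat values exceeded all normal diet values (30.8%). That share was 8.46% of all probe sets and 11.9% of the genes above background on all 6 arrays, as all 13 regulators and pumps were. CASK, a scaffold of synaptic membranes, measured 12.75, 12.71 and 12.53 on the high fat arrays, against 12.31, 12.35 and 12.19 on the normal diet arrays (change 0.38, SE 0.12). mle, the RNA helicase whose napts allele disturbs splicing of para transcripts, was at 9.53 ± 0.02 on the high fat diet and 9.13 ± 0.20 on the normal diet (change 0.40, SE 0.14). Of 2 further genes, picked out after their values were seen, pum, a translational repressor of para, was at 0.23 (SE 0.16), and Adar, the enzyme that edits many channel transcripts, at -0.21 (SE 0.38).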

How the data were processed

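The authors deposited 1 column of linear intensities for each array. Per the submitters' processing notes these came from Affymetrix Expression Console, for which neither a version nor the probe summarization is stated. The mean without the top and bottom 2% was 500 on each array, so arrays were scaled by 1 factor each and their medians differ. All 6 columns were used.

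Values under 1 were set to 1 (2010 values) and log2 transformed. The 183 control probe sets were left out. limma 3.58.1 in R 4.3.3 (lmFit, eBayes) fitted high fat minus normal diet on 18769 probe sets, adjusted by Benjamini-Hochberg, threshold 0.05. Of these, 13647 had 1 gene symbol, 402 several and 4720 none; genes were named from the first kind only. All 36 channel genes matched the RefSeq gene table (assembly Release 6 plus ISO1 MT) by Entrez identifier and 0 symbols changed. The probe sets of 5 (tipE, sei, SK, Ork1, Slob) end in s_at, the maker's mark for probes shared by several transcripts.

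Every array value is given for channel genes with non-overlapping diets, an unadjusted p under 0.05 or the smallest p of an ion class, and beside these for genes a comparison turns on, chosen after their values were seen. Of the lists of other channels and of regulators, the 2 genes with the smallest p are named, and any others were chosen after their values were seen. Members, lists and rules were chosen with earlier results of these data known. Alternatives were normalization, moderation, floor, filter, probe set choice, replicate block and leaving out arrays. The fit was tested on simulated data with independent noise in each probe set. Shifts shared by many genes of an array were not part of that simulation. Same-numbered arrays of the diets had deviation correlations of -0.07, 0.00018 and 0.03, against -0.10 to 0.11 for the other pairs. These values give no sign of a pairing by number, but with 3 arrays per diet they cannot exclude one. Pairs of arrays correlated at 0.939 to 0.955 across probe sets. Number of arrays limits the precision.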

Additional observations from a re-analysis of the deposited data

How the results depend on the processing

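No channel gene passed the threshold under any of the alternatives run, and 21 of the 36, all of them higher on the high fat diet, kept their sign under all of them, except Teh1, which turned only when 2 arrays were left out together. Quantile normalization moved the median of all probe sets to 0.035 from -0.03. It gave a higher mean in 35 channel genes and moved the potassium median to 0.25. The sign turned in Teh3 (0.038), eag (0.11), Elk (0.13) and SLO2 (0.14). Median centring moved the median of all probe sets to 0.23 from -0.03. With it all 36 genes were higher, 16 of them without overlap. The share of all probe sets without overlap under this centring is not given, so the 16 has no baseline here. The medians were 0.46 for the channel genes, 0.48 for sodium, 0.60 for calcium and 0.38 for potassium. Those of Ih, of other channels and of regulators and pumps were 0.52, 0.33 and 0.43. Teh3 then stood at 0.17, eag at 0.11, Elk and SLO2 at 0.21 each and Ork1 at 0.12. Trend with robust moderation called 26 probe sets over the whole table and 0 channel genes. Averaging the probe sets of each gene left 5 genes without overlap, and Ca-beta was at -0.17, Shaw at -0.080, SLO2 at 0.12 and qvr at -0.085. The floor of 16 and the filter on dim probe sets turned no sign. Nor did the replicate block, which called 0 channel genes (median 0.19, smallest limma adjusted p = 0.675). The labels link the same-numbered arrays by the number only.

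Leaving out each array in turn gave 0 to 167 calls over the whole table, the 167 without normal diet replicate 2, and 0 channel genes. The genes without overlap numbered 10 to 19, with 19 without normal diet replicate 2 and 16 without high fat diet replicate 2. Fewer arrays make separation easier. For none of the counts without overlap in this section is the share over all probe sets given. That includes those for averaged probe sets and for 2 arrays left out together, so they are not read as results about the channel genes. The channel gene median was 0.09 to 0.29, that of sodium 0.02 to 0.35, of calcium 0.086 to 0.47, of potassium 0.067 to 0.24, of Ih 0.16 to 0.34 and of the leak complex 0.13 to 0.60, each lowest without normal diet replicate 3. Genes whose sign turned ranged as follows: Teh3 -0.23 to 0.12, Teh4 -0.023 to 0.38, Ca-alpha1T -0.11 to 0.33, Shab -0.17 to 0.37, Elk -0.23 to 0.12, slo -0.050 to 0.17, SLO2 -0.18 to 0.080, Task7 -0.020 to 0.10, sand -0.031 to 0.13 and na -0.00096 to 0.36. Without normal diet replicate 3 and high fat diet replicate 2 together, an alternative added after the data were seen, 17 genes did not overlap, 16 of them higher, with a median of 0.15; Teh1 was at -0.0042, Teh3 at 0.17, SLO2 at 0.065 and sand at -0.020. The causes of these shifts were not tested.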
